A study of Homo sapiens with 6 samples.

Results

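Genes for secreted proteases and extracellular matrix proteins were examined in RKO, an established human colorectal carcinoma cell line, in which squalene epoxidase (SQLE) was or was not depleted. SQLE is an enzyme of cholesterol biosynthesis. The 6 genes were MMP3, MMP10, PLAU, ADAMTS16, TNC and COL5A3, out of 500 genes with deposited values. They were chosen by name for their role and also selected on the shNT against shSQLE values described here, so their own differences between the groups are a description and carry no test. RNA-sequencing covered 3 libraries of cells expressing non-targeting shRNA (shNT, genotype given as WT) and 3 of cells expressing shRNA against SQLE (shSQLE), with no other agent named in the labels. The study's text places the comparison after 5-fluorouracil, whereas the labels name no drug and tag both groups "Ctrl", so the treatment is not settled here. Which SQLE hairpin the sequenced cells carried, and whether the replicates were separate cultures, is not given, and p-values then measure only the spread between these libraries.

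The extracellular matrix is the network of collagens, glycoproteins and proteoglycans outside cells, and secreted proteases cut it during growth, migration and wound healing. Matrix metalloproteinases such as stromelysin-1 (MMP3) and stromelysin-2 (MMP10) are released as inactive zymogens with a zinc ion in the active site, while urokinase (PLAU) is a serine protease that converts plasminogen to plasmin, which in turn cuts matrix and activates other zymogens. Several of these genes are known targets of AP-1 and NF-κB, transcription factors that respond to growth and inflammatory signals.

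The deposited values are pseudo-counts, that is, read counts moved to a library size common to all libraries, and whole reads were recovered behind all 3000 of them within 0.01. The 500 genes all lie past the authors' thresholds and need not be every gene that did, and total depth is unknown. The recovered reads in the table summed to 117410 to 233404 per library, with the third shSQLE library the smallest at a relative size of 0.797. The second shNT library stood apart from its replicates, with a chi-square per gene of 25.3 and 27.5 against them, beside 7.05 to 10.0 for all other pairs within a group. Without it, the log2 fold changes (shSQLE over shNT) of the 6 genes were -4.67 for MMP3, -3.87 for MMP10, -1.02 for PLAU, -2.25 for ADAMTS16, -1.41 for TNC and 3.03 for COL5A3. SQLE itself, the target of the hairpin, had pseudo-counts of 6926 to 6976 in shNT and 296 to 307 in shSQLE, or 4.35% of the shNT level. Of 12 epithelial and colon markers 2 were among the 500 genes (KRT20 and LGALS4, with at most 15 reads in any library), of 10 fibroblast markers 0, and of 10 leukocyte and endothelial markers 1 (VWF), so the labelled cell type could not be checked on this table.

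The 3 metalloproteases are zinc enzymes of the same kind, and the codons of their zinc-binding site are shown, with those of MMP1 (interstitial collagenase), because they show how close MMP3 and MMP10 are in sequence. The stretch has 33 bases, read 5′ to 3′ from GENCODE release 29 transcripts, and the capitals mark the codons of the 3 histidines that hold the zinc ion.
MMP3: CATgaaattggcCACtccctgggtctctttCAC
MMP10: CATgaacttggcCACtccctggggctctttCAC
MMP1: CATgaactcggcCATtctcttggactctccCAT
ADAMTS16: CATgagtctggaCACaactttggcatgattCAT

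MMP10 shared 31 of the 33 bases with MMP3, MMP1 shared 24 and ADAMTS16 shared 20. On GRCh38 the MMP3 stretch is chr11:102840535-102840567 and the MMP10 stretch chr11:102776718-102776750, both on the minus strand and in exon 5 of 10. That of MMP1 is chr11:102795549-102795581, minus strand, also exon 5 of 10, and that of ADAMTS16 lies on chromosome 5, plus strand, across the junction of exons 8 and 9 of 23. Over the whole coding sequence, MMP3 and MMP10 were identical at 85.2% of 1428 aligned bases, against 65.5% for MMP3 and MMP1.

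MMP3 and MMP10 are near-identical in part, and their longest shared run is shown because a read inside it cannot be assigned to either gene. It is 96 bases long, entirely coding, in exon 3 of both genes, at chr11:102842434-102842529 in MMP3 and chr11:102779216-102779311 in MMP10, minus strand.
MMP3 and MMP10: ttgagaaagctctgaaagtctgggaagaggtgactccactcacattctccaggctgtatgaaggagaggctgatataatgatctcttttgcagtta

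Of the distinct 50-base words of the MMP3 transcript with the longest coding sequence, 59 of 1967 also occurred in MMP10, and 59 of 1709 of those of MMP10 (3.45%) occurred in MMP3. How the authors' counting treated reads from such stretches is not stated, nor are the mismatches it allowed, so values of both genes are uncertain to an extent that is not known here. ADAMTS16 shared 0% of its words with any other gene, and the antisense gene AC022424.1 overlaps it. PLAU, TNC and COL5A3 shared 6.69%, 1.09% and 1.34%, in each case with a gene annotated at an overlapping position on the opposite strand, and MMP3, MMP10 and MMP1 overlap WTAPP1 on the opposite strand. The sources do not say if reads were counted by strand, so those of such partners cannot be told apart here.

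Of the 6 genes, 5 were lower and 1, COL5A3, was higher in shSQLE. For all 6 the groups of libraries did not overlap and the threshold for a call was passed (adjusted p under 0.05 by limma, with a log2 fold change at or beyond 1 in size). Among all 473 genes tested, 71.9% were called lower, 20.7% higher and 92.6% in either direction, and the groups did not overlap for 90.3%. Because the genes had been selected on this same contrast, nothing is read from these counts. In bulk RNA, fewer cells expressing a gene and less RNA per cell cannot be told apart.

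**Figure D1:**
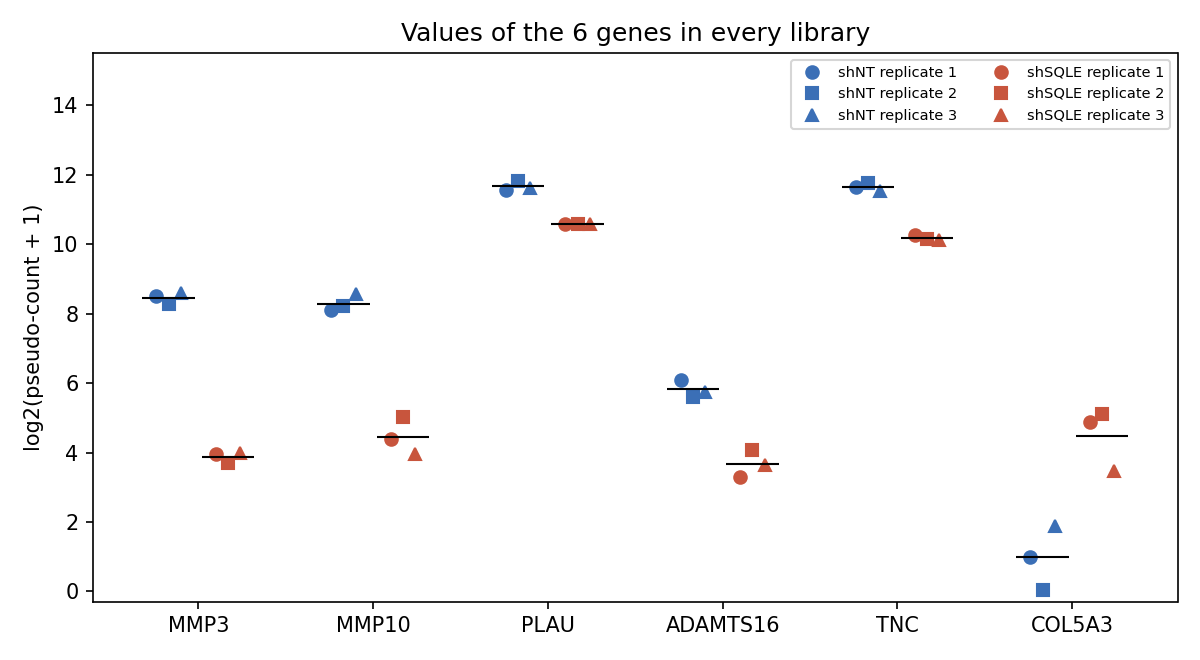
Each point is 1 library and the black bar the mean of 3, on the scale log2(pseudo-count + 1), for the 6 genes in shNT (blue) and shSQLE (red). MMP3, MMP10, PLAU, ADAMTS16 and TNC sit lower in every shSQLE library and COL5A3 sits higher in every shSQLE library.

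Among the proteases, MMP3, which degrades proteoglycans, laminin and fibronectin, had the largest fold difference between the groups. In shNT its pseudo-counts were 363, 306 and 385, and in shSQLE they were 14.5, 11.9 and 14.9. The lowest shNT library was thus 20.5-fold above the highest shSQLE library, and within each group the highest library was 1.26-fold above the lowest. The mean was 351 ± 40.9 (SD, n = 3) in shNT against 13.8 ± 1.65 (SD, n = 3) in shSQLE, so that 3.92% of the shNT level was left. The log2 fold change was -4.57, with a standard error (SE) of 0.195, and ranked as the 4th lowest of the 473 genes. In reads, MMP3 had 362, 282 and 436 in shNT and 16, 13 and 12 in shSQLE. Over the summed reads, the ratio corrected for library size was 0.0388, with a 95% interval of 0.0277 to 0.0530 (exact binomial, counting error only).

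MMP10, which cuts a similar range of matrix proteins and also activates other metalloproteinases, lay close behind. Its pseudo-counts were 273, 295 and 375 in shNT and 19.8, 31.7 and 14.6 in shSQLE. The second shSQLE library was the highest of its group and the third the lowest, 2.17-fold apart, yet all 3 lay below the lowest shNT library by a factor of at least 8.61. The means were 314 ± 54.1 and 22.0 ± 8.74 (SD, n = 3 each), or 7.01% left, with a log2 fold change of -3.83 (SE 0.282). MMP10 ranked 9th from the lowest. Over its summed reads, the ratio corrected for library size was 0.0708, with a 95% interval of 0.0544 to 0.0907 (exact binomial, counting error only). Within a library, the ratio of MMP3 to MMP10 pseudo-counts was 1.33, 1.04 and 1.03 in shNT and 0.733, 0.376 and 1.02 in shSQLE. The first and second shSQLE libraries had less MMP3 per MMP10 than any shNT library. The third, with 12 and 11 reads of the genes, was well below the first shNT library. It was only just below the others, at 1.023 beside 1.038 and 1.026 in shNT replicates 2 and 3.

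ADAMTS16, a secreted zinc protease with thrombospondin motifs, was measured at a much lower level. Its pseudo-counts were 67.1, 47.9 and 52.7 in shNT and 8.91, 15.8 and 11.4 in shSQLE, from 44 to 67 reads and from 9 to 17 reads. The groups did not overlap, and the nearest libraries were 3.03-fold apart. The means were 55.9 ± 10.0 and 12.03 ± 3.49 (SD, n = 3 each), so that 21.5% was left, and the log2 fold change was -2.15 (SE 0.323). With so few reads in shSQLE, its ratio of 0.215 has a 95% interval of 0.146 to 0.310 from counting alone (exact binomial, which covers counting error only).

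PLAU, the urokinase gene, had high levels in both groups and the log2 fold change smallest in size of the 6 genes. Its pseudo-counts were 3029, 3608 and 3163 in shNT and 1528, 1537 and 1514 in shSQLE. All 3 shSQLE libraries lay within 1.02-fold of each other, and the lowest shNT library was 1.97-fold above the highest of them. The means were 3267 ± 303 and 1526 ± 11.6 (SD, n = 3 each), leaving 46.7%. The log2 fold change of -1.09 (SE 0.0784) ranked 321st from the lowest of the 473 genes.

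Among the matrix proteins, TNC encodes tenascin-C, a large glycoprotein of wounds and tumour stroma that modulates cell adhesion. Its pseudo-counts were 3214, 3454 and 2961 in shNT and 1233, 1142 and 1102 in shSQLE. The lowest shNT library was 2.40-fold above the highest shSQLE library, which exceeded the spread within either group (1.17-fold and 1.12-fold). With means of 3210 ± 246 and 1159 ± 67.2 (SD, n = 3 each), 36.1% of the level was left, and the log2 fold change was -1.47 (SE 0.0816).

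COL5A3, a chain of the fibril-forming type V collagen, was the only gene of the 6 that was higher in shSQLE. Its reads numbered 1, 0 and 3 in shNT, and 31, 36 and 7 in shSQLE. The pseudo-counts were 1.003, 0.0252 and 2.73 against 28.2, 33.5 and 10.1, so the groups did not overlap, and the third shSQLE library, which was also the smallest, was far below the other two. Over the summed reads, 4 against 74, the ratio corrected for library size was 18.9, with a 95% interval of 7.09 to 71.3 (exact binomial, counting error only). The log2 fold change of 3.50 (SE 0.655) ranked 3rd from the highest and moved with the pseudocount, to 4.87 with 0.1 and 2.12 with 5 in place of 1. A gene this close to 0 in shNT has a size of change that these reads bound only loosely.

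Levels of different genes were compared as pseudo-counts per kb of the longest protein-coding transcript in GENCODE release 29. In shNT the order was PLAU with 1229 ± 114, TNC with 420 ± 32.2, MMP10 with 179 ± 30.8, MMP3 with 174 ± 20.3, ADAMTS16 with 11.2 ± 2.01 and COL5A3 with 0.203 ± 0.222 (SD, n = 3 each). Only MMP10 and MMP3 did not differ beyond their spread. In shSQLE the levels per kb were 574 ± 4.35 for PLAU, 152 ± 8.80 for TNC, 12.5 ± 4.97 for MMP10, 6.84 ± 0.818 for MMP3, 3.88 ± 1.98 for COL5A3 and 2.42 ± 0.701 for ADAMTS16. There the libraries of COL5A3 and ADAMTS16 overlapped, while all 3 values of MMP10 lay above all 3 of MMP3. PLAU and TNC were the highest in both groups, and the ratio of their levels per kb was 2.71 to 3.07 in shNT and 3.56 to 3.95 in shSQLE.

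**Figure D2:**
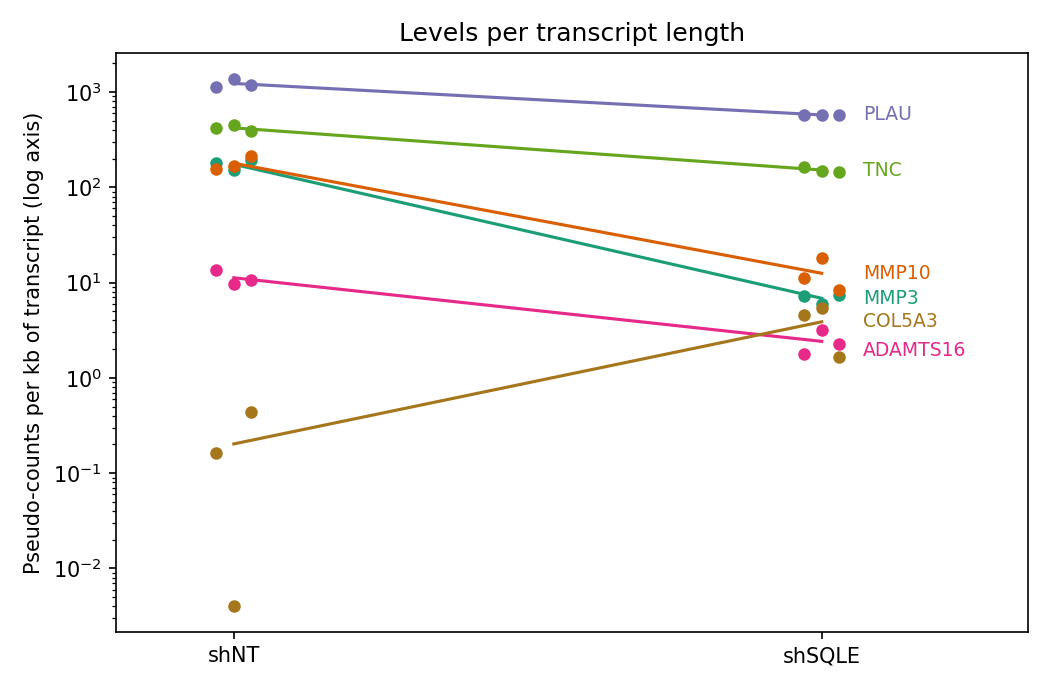
Pseudo-counts per kb of transcript, on a log axis, in the 3 libraries of shNT and of shSQLE (points), with a line joining the group means. PLAU and TNC stay highest, MMP3 and MMP10 start together near 174 and 179, and COL5A3, with 0 reads in shNT replicate 2, crosses ADAMTS16.

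The spread between replicates, on the log2(pseudo-count + 1) scale, was set beside that of the 50 genes of the table closest in level. In shNT the genes were ordinary, since 15 to 25 of these 50 genes had a larger SD. In shSQLE they were not alike. PLAU, with an SD of 0.0109, was tighter than 49 of the 50 genes, and MMP3, with 0.166, tighter than 46. COL5A3, with an SD of 0.882, was wider than all but 2, and MMP10, with 0.537, wider than all but 11. ADAMTS16 and TNC, with 0.382 and 0.0829, lay between, with 33 and 26 of the 50 genes wider. An SD of 3 libraries is itself imprecise, and in shSQLE MMP3 had only 16, 13 and 12 reads. Whether any of these spreads differs from counting error was not tested, so no trait of a gene is read from them.

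Gene by gene likeness was measured as the root mean square difference of the profile over the 6 libraries, after centring each gene on its mean of log2(pseudo-count + 1), among 299 other genes with a mean of at least 10. Most of each profile is the difference between shNT and shSQLE on which the genes were selected, so the measure mainly finds genes with a similar fold change and does not show that genes vary together within a group. The profile closest to MMP3 was that of SQLE itself (difference 0.130, with log2 fold changes of -4.57 and -4.52), followed by CXCL8, a neutrophil chemokine (0.413). PLAU was closest to TNFSF15, a cytokine of the TNF family (0.0258), and FADS2, a fatty acid desaturase (0.0528). TNC was closest to ENC1 (0.0548) and AOX1, an aldehyde oxidase (0.0757), and ADAMTS16 to LOC101928841 (0.181) and LURAP1L (0.202). The nearest genes were ARHGAP29 (0.386) and KRTAP3-2, a hair keratin-associated protein gene (0.424), for MMP10, and CA9, a carbonic anhydrase (0.824), and GRAMD1B, a sterol transport protein gene (0.909), for COL5A3.

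The genes of the set lie on 5 chromosomes of GRCh38, and exons are those of the transcript with the longest coding sequence in GENCODE release 29. MMP10 (chr11:102770503-102780628) and MMP3 (chr11:102835801-102843803) are neighbours on the minus strand, with MMP1 (chr11:102789920-102798160) between them. PLAU is at chr10:73909177-73917497, plus strand, with 11 exons, and ADAMTS16 at chr5:5140330-5320304, plus strand, with 23 exons. TNC is at chr9:115019578-115118257, minus strand, with 28 exons, and COL5A3 at chr19:9959561-10010471, minus strand, with 67 exons. Of the 9 MMP genes that lie within 435 kb around MMP3, 3 were among the 500 genes, and these 3, MMP10, MMP1 and MMP3, are next to each other. MMP1 had 355, 447 and 522 pseudo-counts in shNT and 159, 110 and 102 in shSQLE, a log2 fold change of -1.84 (SE 0.204), and was called lower. Per MMP1, MMP3 amounted to 0.684 to 1.02 in shNT and 0.0915 to 0.146 in shSQLE. BIRC3, an inhibitor of apoptosis, lies 431 kb from MMP10 and was also called lower, with a log2 fold change of -1.44 (SE 0.109). The only other genes of the table within 1 Mb were TNFSF15 near TNC (213 kb away, log2 fold change -1.05) and OLFM2, an olfactomedin gene, near COL5A3 (23.01 kb away, log2 fold change -2.30), both called lower.

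**Figure D3:**
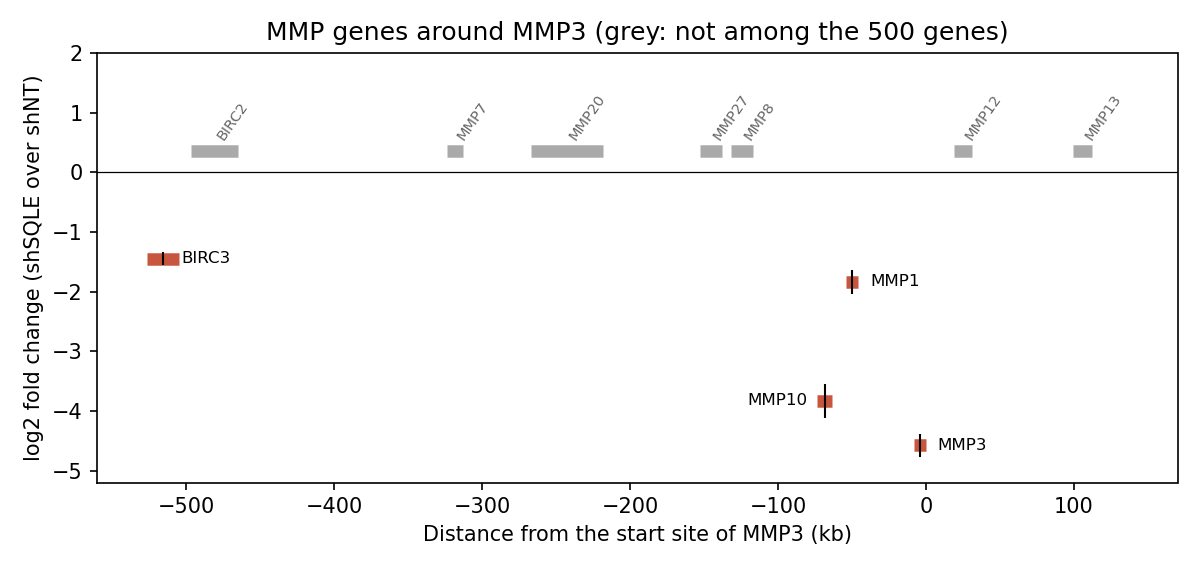
The log2 fold change (shSQLE over shNT, vertical bars: SE) of genes around MMP3 against their distance in kb from its start site, with the width of each block showing the gene's extent. MMP10, MMP1 and MMP3 lie side by side at -3.83, -1.84 and -4.57, and the genes in grey, drawn above the line at no measured height, are not among the 500.

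Promoter windows from RefSeq on GRCh38.p14, 250 bases before to 50 after a start site, were found for 4 of the 6 genes, namely MMP10, PLAU (with 2 starts), TNC and COL5A3. They were searched on both strands for the AP-1 motif TGANTCA and for the 10-base NF-κB motif. The MMP10 window held 1 match to the AP-1 motif, beginning 67 bases before the start, and the other 4 windows held 0 matches to either motif. Of all 35116 promoter windows, 7.71% held the AP-1 motif and 11.3% the NF-κB motif, and of the 520 windows of genes in the table, 11.3% and 13.1%. The 250 bases before the MMP10 start are shown because the match lies in them, at chr11:102780629-102780878, minus strand, with the match in capitals.
MMP10: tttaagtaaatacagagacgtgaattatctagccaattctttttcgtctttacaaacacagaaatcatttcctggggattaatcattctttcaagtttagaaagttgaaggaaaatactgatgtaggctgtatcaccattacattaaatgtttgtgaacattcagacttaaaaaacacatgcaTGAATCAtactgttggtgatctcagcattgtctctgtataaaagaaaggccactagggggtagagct

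Other matrix and protease genes were taken from 9 lists written by family and role, which hold 317 genes apart from the 6. Of these, 24 were among the 500 genes and 21 passed the filter on low values. By limma with the thresholds above, 16 of the 21 were called lower (76.2%) and 4 higher (19.0%), beside 71.9% and 20.7% of all genes tested, and their median log2 fold change was -1.42 beside -1.38. COL16A1 and ITGA2B had 0 reads in shSQLE and passed the filter through shNT alone, so they had to differ. Among genes with reads in both groups, 14 of 19 related genes were called lower and 4 higher, beside 70.7% and 21.2% of 433 genes. With all libraries, these shares are near those of the whole table. Without shNT replicate 2, 8 of 19 tested related genes were called lower (42.1%) and 2 higher (10.5%), beside 57.6% and 17.2% of all 429 genes tested in that fit. Of the 6 fits that each left out 1 library, all kept 8 of the 20 calls, among them those of MMP1, SERPINB2, COL11A2, SPP1, VWF, CPA4 and FBN1. A2M and HTRA1 kept their calls in 5 fits, COL5A1, CYR61, MATN3 and TGM2 in 4, SERPINA1, COL16A1, ITGA2B and ITGAM in 3, PAPPA2 in 2 and MATN4 in 1. For COL16A1 and ITGA2B the losses were fixed by the filter. Without any 1 of the shNT libraries they no longer passed it and were not tested.

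In the plasminogen system, SERPINB2, which encodes the urokinase inhibitor PAI-2, was called lower, as PLAU was. It had 21.1, 47.2 and 35.3 pseudo-counts in shNT and 7.35, 4.58 and 2.76 in shSQLE, a log2 fold change of -2.59 (SE 0.481, and adjusted p = 0.00157 in the limma fit). SERPINE2, another inhibitor of urokinase, had a log2 fold change of -0.99 (SE 0.313) and did not pass the fold threshold. Of the remaining protease inhibitors, SERPINA1, the elastase inhibitor, was called lower with 6, 2 and 4 reads left in shSQLE, and A2M, which traps proteases of all classes, was called higher from 2, 0 and 2 to 6, 9 and 4 reads. PI3, an elastase inhibitor, had at most 8 reads in shNT and 0 in shSQLE and was not tested.

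Among other secreted proteases, CPA4, a carboxypeptidase, was called lower with a log2 fold change of -2.46 (SE 0.482), and PAPPA2, a protease of insulin-like growth factor binding proteins, with -1.42 (SE 0.488), a call lost in 4 of the 6 fits with 1 library left out. HTRA1, a secreted serine protease, was called higher. Its pseudo-counts were 89.7 ± 16.0 against 189 ± 17.1 (SD, n = 3 each), shNT first, for a log2 fold change of 1.08 (SE 0.178). ADAMTS12, the only other ADAMTS gene among the 500, had 4, 5 and 1 reads in shNT and 0 in every shSQLE library and was not tested.

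Of the other collagens with reads in both groups, COL5A1 and COL11A2 were tested and called lower. COL5A1, which combines with other chains in type V collagen, had 32.1, 47.3 and 32.4 pseudo-counts in shNT and 17.2, 22.3 and 8.33 in shSQLE, where COL5A3 was higher, and its log2 fold change was -1.25 (SE 0.408, and adjusted p = 0.0201 in the limma fit). Its call was lost without shNT replicate 2 or shSQLE replicate 3. COL11A2, a chain of the related type XI collagen, was called lower with a log2 fold change of -1.21 (SE 0.193). COL16A1 had 3, 3 and 2 reads in shNT and 0 in shSQLE, and COL8A2, with 3, 6 and 0 against 0, was not tested. TGM2, which crosslinks matrix proteins, was called lower with a log2 fold change of -1.04 (SE 0.197).

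Of the 7 other matrix glycoproteins tested, 5 were called lower and 2 higher. CYR61, a matricellular integrin ligand, had the highest level, with 7156 ± 178 and 3545 ± 122 pseudo-counts (SD, n = 3 each), or -1.01 as a log2 fold change (SE 0.0548). SPP1 (osteopontin), VWF and MATN4 had log2 fold changes of -2.07, -2.86 and -1.63, the last of them a call kept in 1 of the 6 fits with a library left out. FBN1, which encodes fibrillin-1, was called higher with a log2 fold change of 1.71 (SE 0.472) and MATN3, a matrilin, with 1.15 (SE 0.353). Of the receptors, the integrin gene ITGAM was called lower, from 3, 7 and 11 reads to 0, 2 and 2, and ITGA2B went from 2, 4 and 4 reads to 0 in every shSQLE library.

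**Figure D4:**
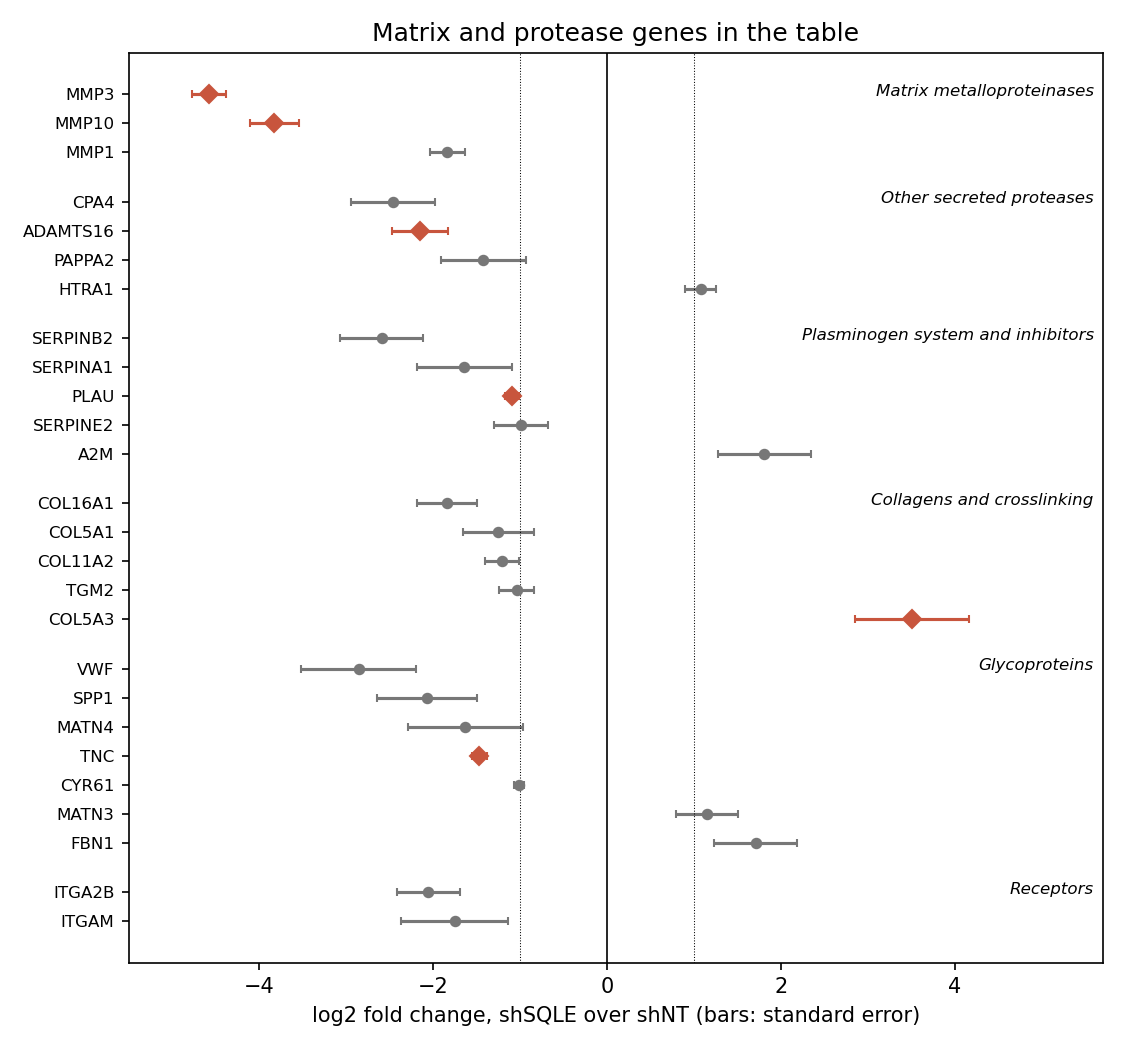
The log2 fold change of the 6 genes (diamonds) and of related genes that were tested and are named here (circles), by family, with its SE as the bar and dotted lines at -1 and 1. MMP3 and MMP10 lie furthest to the left, and COL5A3 lies furthest to the right with a wide bar.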

How the data were processed

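Total RNA of 6 RKO libraries, 3 shNT and 3 shSQLE, was sequenced on Illumina protocols. The authors deposited a normalized signal per gene and library, here called a pseudo-count, for 500 selected genes, with their own log2 fold changes and p-values, which were not used. The submitters' processing notes name Bowtie 0.12.2 and mm8, a mouse build, although the gene names are human. Counting, annotation and test are not given in the sources used here. Relative library sizes and a dispersion (0.00485 in each group) were fitted to invert a negative binomial quantile adjustment, under which whole reads gave back the deposited signal values within 0.01. The method was tested on simulated data.

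The groups were compared by limma 3.58.1 in R 4.3.3, on log2(pseudo-count + 1) with the trend option, adjusting p-values by Benjamini-Hochberg. No covariate was used, and 473 genes entered, those reaching 1 in 3 or more libraries. As the authors had picked the 500 genes on these libraries, adjusted p-values hold only among them. Fold changes on this scale understate those of genes with few reads. The members and lists were chosen with earlier results of these data known. Named are the 6 members, SQLE, related genes in the table with the exception given below, the 2 most alike genes of each member, and genes within 1 Mb. Chi-square per gene between recovered reads of replicates was 7.05 to 27.5, so no library was taken for a copy. Positions, transcripts and lengths came from GENCODE release 29 on GRCh38, which matched 490 of the 500 names (98.0%). Promoters came from RefSeq. An item counted in the lists is not reported here by name. Alternatives to the pseudocount, filter, threshold, libraries and pairing were computed. Python 3.11.15, NumPy 2.4.6, pandas 2.3.3, SciPy 1.17.1, Biopython 1.88 and Matplotlib 3.10.9 were used.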

Additional observations from a re-analysis of the deposited data

How the results depend on the processing

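None of the values for the 6 genes reversed under any alternative, but 16 of the 70 values, under the replicate block and the filters, equal the original by construction. Of the 54 that could move, 51 moved by less than 1 SD between replicates. For fits with 1 library left out this was fixed in advance, because the mean of 3 libraries cannot shift by that much. Only values under other pseudocounts and the fit on recovered reads (limma-voom) were able to exceed it. The 3 that moved further came from the pseudocount, with a log2 fold change of -4.24 for MMP3 at a pseudocount of 5, and of 4.87 and 2.12 for COL5A3 at pseudocounts of 0.1 and 5. When every library had to reach 10, ADAMTS16 and COL5A3 could not be fitted. That filter left 193 genes, of which 137 were called lower and 47 higher, with 5 related matrix and protease genes lower and 2 higher, in place of 340, 98, 16 and 4. An adjusted p under 0.01 gave 203 lower and 52 higher genes, with 10 and 1 related genes. At a pseudocount of 5 there were 234 lower and 58 higher genes, of which 11 and 3 were related genes. With 1 library left out, 8 to 15 related genes were lower and 2 to 4 higher, with the fewest in both directions without shNT replicate 2 (the cause was not tested), while of all genes 232 to 295 were lower and 71 to 80 higher. Of the 6 genes, depth limits COL5A3 most, with 4 reads in all of shNT.

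The groups share replicate numbers, but same-numbered libraries deviated together with correlations across genes of only 0.0806, 0.0416 and 0.0919, so the numbers were not taken as a pairing. With the replicate block, 333 genes were lower and 97 higher, and 16 and 4 of the related genes. The fold changes of the 6 genes cannot move under it. limma-voom on the recovered reads gave 338 and 96.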

Other observations

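The gene annotation that the authors deposited with the values gives another view of the same groups. Of the 500 genes, 16 carried the term proteinaceous extracellular matrix, among them MMP3, MMP10 and ADAMTS16, and of the other 11 that were tested, 8 were called lower and 2 higher by limma, with a median log2 fold change of -1.60, beside 71.9% lower and 20.7% higher among all genes tested. For proteolysis, 9 of 11 other tested genes were lower and 2 higher, with the same median of -1.60. For extracellular space, 43 of 55 were lower and 6 higher (median -1.51), for extracellular matrix organization 9 of 11 and 2 (median -1.44), and for collagen catabolic process 3 of 3 and 0 (median -1.25). For extracellular matrix disassembly the 6 other genes split evenly, with 3 lower, among them SPP1 and MMP1, and 3 higher, HTRA1, FBN1 and A2M, and a median of -0.08. Over all tested genes the median was -1.38. The terms were looked up after the values were known, and terms share genes, so nothing particular to a term is read from these counts.

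KRT20 and LGALS4, intestinal epithelial genes, had 4, 4 and 15 reads and 2, 1 and 10 reads in shNT and 0 in every shSQLE library, with the third shNT library the highest in both.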
